A study of Mus musculus with 12 samples.

Results

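The RNAs described here are genes that were listed in the count table of cultured cells and absent from that of tumors, and that had at least 10 estimated counts in all 3 DMSO libraries or in all 3 YJ1206 libraries. By this rule 439 of the 5570 genes listed only for cells were members, out of 40077 genes in the cell table. Of these, 433 are annotated as long intergenic noncoding RNAs (lincRNAs), and the rest are the antisense RNAs Tug1 and 9630028B13Rik, the processed transcript Snhg15 and the annotated coding genes Erdr1, Gm47283 and 6030445D17Rik. RNA was sequenced from Myc-CaP cells, a mouse prostate cancer line whose prostate epithelium of origin expressed a human MYC transgene. One group of 3 cultures received the solvent DMSO, and the other received YJ1206 at 1 μM for 24 hours. YJ1206 is a proteolysis-targeting chimera that brings CDK12 and CDK13 to degradation, and both groups share the line and the MYC transgene. All values come from 1 cell line, and no untreated culture or second degrader was analysed here. Of the 5570 genes listed only for cells, 3245 had 0 counts in all 6 cell libraries, so the listing does not follow expression. Absence from the tumor list gives no level in tumors and does not make a member specific to cultured cells.

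A lincRNA is transcribed from DNA between coding genes, often capped and spliced like an mRNA, and many remain in the nucleus, where the exosome removes those that are not stabilised. Some act as scaffolds of nuclear bodies, some are the precursors from which microRNAs or small nucleolar RNAs (snoRNAs) are cut, and some are made beside a gene that they regulate. CDK12 and CDK13 phosphorylate the tail of RNA polymerase II and are known for keeping it moving through long genes. Most lincRNAs, though not every gene annotated as one, are made by the same polymerase.

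Total estimated counts were 18198086 to 18519926 in DMSO and 13936902 to 14869592 in YJ1206 libraries, and 3 counts corresponded to 0.151 to 0.231 CPM. CPM are counts relative to the library total, here scaled between libraries by the trimmed mean of M-values (TMM). Of the epithelial markers examined, Epcam was at 0 in every library, Cdh1 reached at most 0.461 CPM and Krt18 at most 0.615 CPM, so these defining markers were at or near the detection limit in a line labelled as prostate cancer. The prostate homeobox gene Hoxb13 was at 10.5 to 10.9 CPM in DMSO and 17.2 to 20.0 CPM with YJ1206, and the keratin gene Krt8 at 2.77 to 3.15 and 31.7 to 33.3 CPM, both without overlap between groups. Leukocyte markers reached at most 0.256 CPM and endothelial markers at most 0.307 CPM in sum, and fibroblast markers summed to 8.44 to 10.5 CPM, nearly all of it Pdgfra. Muscle markers summed to 0.464 to 0.705 CPM in DMSO and 1.89 to 2.15 CPM with YJ1206. That rise was in Acta1 (0.10 to 0.20 and 1.43 to 1.77 CPM), while Ckm overlapped between groups (0.31 to 0.56 and 0.23 to 0.50 CPM). The part of these marker levels in the results was not tested. The library numbers of the 2 groups come from separate series, so a library batch and the treatment cannot be told apart.

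The microRNA hosts were among the members with the clearest identities, and mature microRNAs of some hosts described next are shown because a host's level is all that these libraries measured of them. The choice was made after the values were seen and leaves out other hosts that differed, such as Mir124-2hg and Ftx. Sequences are from RefSeq (GRCm38.p6), 5′ to 3′, with the seed (bases 2 to 8) in capitals.
miR-17-5p (Mir17hg): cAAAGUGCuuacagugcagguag
miR-20a-5p (Mir17hg): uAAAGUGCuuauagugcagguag
miR-18a-5p (Mir17hg): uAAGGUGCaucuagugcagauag
miR-19a-3p (Mir17hg): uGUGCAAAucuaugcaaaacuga
miR-19b-3p (Mir17hg): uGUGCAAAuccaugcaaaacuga
miR-92a-3p (Mir17hg): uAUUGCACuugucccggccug
let-7a-5p (6720427I07Rik): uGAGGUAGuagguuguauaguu
let-7f-5p (6720427I07Rik): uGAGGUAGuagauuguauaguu
let-7d-5p (6720427I07Rik): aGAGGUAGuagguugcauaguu
miR-31-5p (Gm49890): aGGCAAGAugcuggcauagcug
miR-191-5p (4833445I07Rik): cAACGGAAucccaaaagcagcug
miR-425-5p (4833445I07Rik): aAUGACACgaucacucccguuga
The first 2 microRNAs of Mir17hg share 1 seed, as do its miR-19 pair, while miR-18a and miR-92a have seeds of their own. The let-7 microRNAs of 6720427I07Rik all share 1 seed, and those of Gm49890 and 4833445I07Rik each have their own.

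Mir17hg, the host of the oncogenic miR-17-92 cluster (chr14:115042879-115046727, plus strand, GRCm38), was at 50.2, 48.2 and 47.4 CPM in the DMSO libraries and at 17.4, 17.2 and 18.1 CPM in the YJ1206 libraries. The groups did not overlap, and the host fell 2.76-fold (log2 fold change -1.47, SE 0.07, adjusted p = 2.86e-17, edgeR quasi-likelihood test). Gm49890, whose span holds Mir31 (chr4:88909855-88938521, minus strand), was at 5.12, 4.08 and 4.58 CPM in DMSO and at 2.36, 0.980 and 1.31 CPM with YJ1206, all lower than every DMSO library. It fell 2.97-fold (log2 fold change -1.55, SE 0.25, adjusted p = 3.11e-06). The let-7 host 6720427I07Rik went the other way in the fit (log2 fold change 0.35, SE 0.14, adjusted p = 0.0226), although its libraries overlapped, with 8.66, 7.17 and 7.85 CPM in DMSO and 12.3, 9.88 and 7.91 CPM with YJ1206. Mir124-2hg, the host of a microRNA best known from neurons, rose 2.54-fold from 1.18, 0.980 and 1.51 CPM to 3.15, 3.02 and 3.15 CPM (log2 fold change 1.34, SE 0.26, adjusted p = 5.31e-05). Mir155hg, known from activated lymphocytes, was at 3.43 to 4.33 CPM in DMSO and 3.53 to 5.13 CPM with YJ1206, a difference that did not pass the test (adjusted p = 0.461).

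Other hosts had met the rule through 1 group only, which sets the direction of their difference, and their values are given with no test. 4833445I07Rik, which holds Mir191 and Mir425, was at 0.205, 0.464 and 0.403 CPM in DMSO and at 1.72, 2.11 and 1.31 CPM with YJ1206. It starts 99 bases from the coding gene Ndufaf3 on the opposite strand, and Ndufaf3 fell from 4.99 ± 0.164 to 1.71 ± 0.420 CPM (log2 fold change -1.54, adjusted p = 3.04e-07). Mir181a-1hg was at 0.615, 0.722 and 0.604 CPM in DMSO and had 0 counts in all 3 YJ1206 libraries, which makes it at least 2.89-fold lower against a floor of 3 counts per library. Mir670hg was at 1.91 to 2.37 CPM in DMSO and 0.384 to 1.81 CPM with YJ1206. In all, 14 members held a microRNA gene on their own strand.

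Of the 439 members, 221 had at least 10 counts in both groups, 196 in DMSO only and 22 in YJ1206 only. Depth entered this split, since the DMSO libraries were deeper. With the same level of 0.768 CPM required in every library, 199 genes met it in both groups, 111 in DMSO only and 33 in YJ1206 only. Genes also present in the tumor table split more evenly on that scale, with 383 of 10991 (3.48%) in DMSO only and 304 (2.77%) in YJ1206 only, against 32.4% and 9.62% of the 343 genes listed only for cells. The members at the threshold were 1500015L24Rik and 1700003I16Rik, whose lowest count in the group that let them in was 10, and just outside it lay Gm28826 and Gm26520 at 9.9992 and 9.9317.

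**Figure D1:**
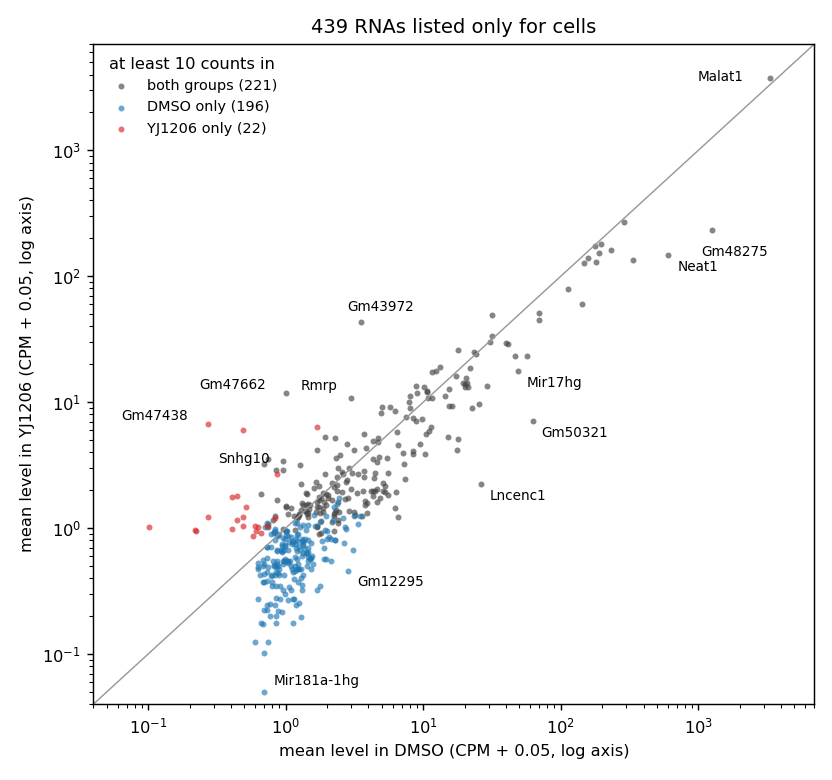
Mean level of each of the 439 RNAs in DMSO (x axis) and YJ1206 (y axis), in TMM-scaled CPM with 0.05 added, on log axes; each point is 1 RNA, coloured by the group or groups in which it had at least 10 counts, and the line marks equal levels. Malat1 sits alone at the top near the line, while Gm48275, Neat1, Gm50321, Lncenc1 and Mir17hg lie below it and Gm43972, Gm47662 and Gm47438 above it.

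Among the 221 RNAs with 10 counts in all 6 libraries, 34 passed the test as higher and 99 as lower with YJ1206, with a median log2 fold change of -0.25. Of all 11826 genes tested, 76.1% passed in either direction, 37.8% as higher and 38.3% as lower, with a median of -0.02. The RNAs called lower were therefore 44.8% of these members and those called higher 15.4%. Because 10 counts were required in every library, RNAs that fell further were left to the group met by DMSO only. By mean count, 44 of the 85 such members with 30 to 100 counts were lower and 11 higher (median -0.53), and of 1097 protein-coding genes in the same count range 414 were lower and 284 higher (median -0.17). Members with over 1000 counts were lower in 13 of 15 cases and higher in 1, while coding genes of that range were higher in 1966 and lower in 1227 of 3652 (median 0.13). Members with 100 to 300 counts lay near coding genes, with 22 of 44 lower and 13 higher (median -0.23). Coding genes of that range were lower in 910 and higher in 519 of 1911 (median -0.19). Under 30 counts, 8 of 58 members were lower and 6 higher (median -0.01), beside a coding median of -0.10. With 300 to 1000 counts, 12 of 19 were lower and 3 higher (median -0.43), beside a coding median of -0.04. No set test was made of these differences. Over all members, 24 did not pass the filter on low counts, and among the 415 tested 49 were higher, 188 lower and 178 not called, which describes the list and tests nothing, since 218 members had met the rule through 1 group. Groups of libraries did not overlap for 141 of the 221 RNAs, against 77.5% of all genes tested.

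The members took 0.950 to 1.02% of all counts in DMSO and 0.621 to 0.714% with YJ1206. Without Malat1 these shares were 0.621 to 0.632% and 0.316 to 0.322%. In TPM, the relative abundance of transcripts after division by length, the members' share was 3.67 to 3.77% in DMSO and 1.07 to 1.13% with YJ1206, and the groups did not overlap on either scale. Most of the difference in TPM lay in 1 short RNA, Gm48275, described with its copies. Its 287 bases are close to the fragment lengths of 246 to 266 bases implied for the libraries. Division by the short length that remains makes its TPM large relative to its count.

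Nuclear scaffolds and X-linked regulators came first by role. Malat1, an abundant nuclear-speckle RNA, had the highest count of the members, with 3677, 3089 and 3259 CPM in DMSO and 4164, 3955 and 3257 CPM with YJ1206. The groups overlapped, the fitted log2 fold change was 0.18 (SE 0.05, adjusted p = 0.00354), and the call was absent in DESeq2 (adjusted p = 0.186) and the sign was not kept when libraries were scaled by their totals (-0.003). Neat1, the RNA on which paraspeckles are built and a neighbour of Malat1 (chr19:5824708-5845478, minus strand), was at 622, 577 and 615 CPM in DMSO and at 158, 140 and 145 CPM with YJ1206. Every YJ1206 library was far lower than every DMSO library, and Neat1 fell 4.10-fold (log2 fold change -2.03, SE 0.04, adjusted p = 8.59e-26). Of the 10 paraspeckle protein genes listed, 5 were higher and 4 lower, Rbm14 most (88.4 ± 0.343 to 215.8 ± 14.7 CPM, log2 fold change 1.29), with a median of 0.07. Over all genes tested, 37.8% were higher and 38.3% lower with a median of -0.02, so these counts lay near the background.

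Jpx and Ftx, activators of Xist in the X-inactivation centre, both fell. Jpx was at 7.79, 6.14 and 7.35 CPM in DMSO and at 3.50, 4.30 and 3.92 CPM with YJ1206, without overlap (1.82-fold, log2 fold change -0.86, SE 0.16, adjusted p = 2.17e-05). Ftx went from 39.7 ± 1.52 to 29.3 ± 3.37 CPM (SD, n = 3; log2 fold change -0.43, SE 0.07, adjusted p = 3.59e-06). Xist itself was near the detection limit in both groups, with 0.871, 0.774 and 0.403 CPM in DMSO and 0.929, 1.21 and 0.845 CPM with YJ1206. It met the rule through the YJ1206 libraries, while 1 DMSO library was under 10 counts. 2900097C17Rik, the mouse Norad locus, which sequesters Pumilio proteins, was at 195 ± 6.33 and 182 ± 4.99 CPM (log2 fold change -0.10, SE 0.03, adjusted p = 0.0131), and this call was lost in DESeq2 (adjusted p = 0.0914). It shares sequence with Gm7292, and both summed to 206 ± 6.56 and 193 ± 4.75 CPM.

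**Figure D2:**
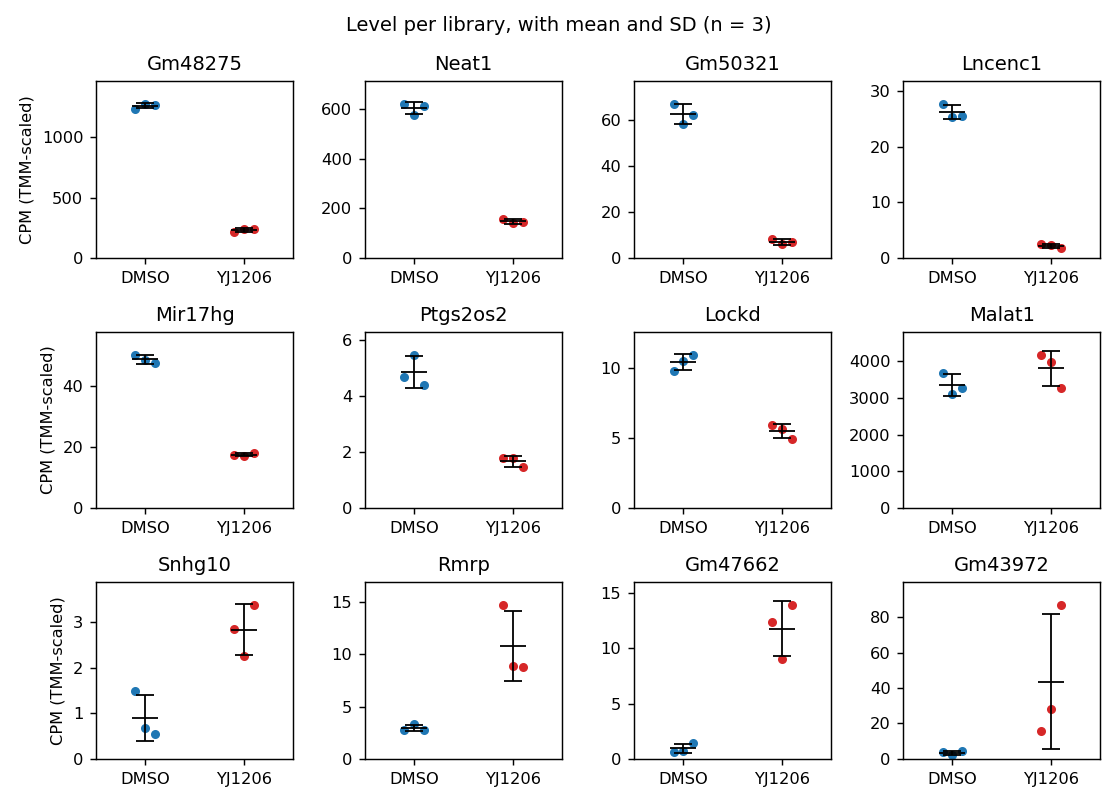
Level of 12 members in each library, in TMM-scaled CPM on linear axes from 0; points are libraries, horizontal bars means and error bars SD (n = 3). The 3 YJ1206 libraries of Neat1 lie at 140 to 158 CPM against 577 to 622 in DMSO, Malat1 overlaps between groups, and the high mean of Gm43972 with YJ1206 rests mostly on 1 library at 86.9 CPM.

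Hosts of snoRNAs, whose spliced exons are often unstable once the snoRNA has been cut from an intron, did not move together. Snhg12 fell from 41.0 ± 2.49 to 29.1 ± 1.29 CPM (log2 fold change -0.50, SE 0.06, adjusted p = 9.95e-08), and Snhg6 from 20.1 ± 1.34 to 13.9 ± 0.429 CPM (log2 fold change -0.53, SE 0.09, adjusted p = 5.23e-06). Snhg10, which holds Scarna13, was at 1.49, 0.671 and 0.554 CPM in DMSO and at 2.86, 2.26 and 3.38 CPM with YJ1206. Every YJ1206 library was higher, and Snhg10 rose 3.14-fold (log2 fold change 1.64, SE 0.33, adjusted p = 6.02e-05). Epb41l4aos was at 9.36 to 11.3 CPM in DMSO and 11.7 to 14.6 CPM with YJ1206 (log2 fold change 0.38, adjusted p = 0.00389), a call lost on TPM values (adjusted p = 0.546). Snhg15 (21.9 to 24.3 and 24.2 to 25.6 CPM) and Snhg20 (10.5 ± 0.776 and 12.1 ± 0.774 CPM) did not pass the test. In all, 12 members held an annotated snoRNA.

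Rmrp, the RNA of the RNase MRP ribozyme, was at 2.77, 3.30 and 2.77 CPM in DMSO and at 14.7, 8.90 and 8.83 CPM with YJ1206. It rose 3.67-fold without overlap (log2 fold change 1.88, SE 0.18, adjusted p = 4.17e-10), and 1 YJ1206 library stood above the other two. Its annotated gene overlaps another Rmrp entry over 96.4% of its exonic bases.

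Of the RNAs tied to p53, MYC and the cell cycle, Lockd and Tug1 fell. Lockd, made downstream of the cell cycle inhibitor gene Cdkn1b, was at 9.79, 10.5 and 10.9 CPM in DMSO and at 5.93, 5.65 and 4.92 CPM with YJ1206, and fell 1.89-fold on the count scale (log2 fold change -0.91, SE 0.13, adjusted p = 2.85e-07), and from 22.3 to 4.86 in mean TPM. Its neighbour Cdkn1b rose from 102 ± 2.06 to 177 ± 6.91 CPM (log2 fold change 0.79, adjusted p = 1.76e-16). Tug1 was at 13.0, 14.4 and 15.8 CPM and then 10.6, 12.3 and 10.8 CPM (log2 fold change -0.36, SE 0.11, adjusted p = 0.0031). Pvt1, the neighbour of Myc, was at 8.44 ± 0.303 and 7.43 ± 1.45 CPM and Lncpint, a p53 target, at 11.4 ± 1.01 and 10.7 ± 1.60 CPM, and neither passed the test (adjusted p = 0.206 and 0.433). Myc itself rose from 688 ± 20.8 to 1939 ± 63.5 CPM (adjusted p = 3.23e-26), and how much of that row stems from the human transgene was not tested.

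Both members from the immune and stress list with 10 counts in every library fell. Ptgs2os2 is made from the Ptgs2 (cyclooxygenase-2) locus, 50816 bases from that gene, and was at 4.66, 5.47 and 4.38 CPM in DMSO against 1.79, 1.81 and 1.46 CPM with YJ1206. The groups did not overlap (2.87-fold, log2 fold change -1.51, SE 0.21, adjusted p = 4.13e-07), and Ptgs2 fell from 350 ± 6.48 to 101 ± 5.52 CPM (log2 fold change -1.79, adjusted p = 1.28e-24). Morrbid, which represses the neighbouring proapoptotic gene Bcl2l11 in myeloid cells, was at 15.7, 14.1 and 16.3 CPM and then 11.6, 9.05 and 7.22 CPM (log2 fold change -0.72, SE 0.12, adjusted p = 7.36e-06). Bcl2l11 rose from 20.9 ± 0.398 to 34.2 ± 1.54 CPM (log2 fold change 0.71, adjusted p = 4.71e-10). Of the RNAs grouped by neighbour and development, Oip5os1, also called cyrano, fell from 69.6 ± 1.59 to 44.8 ± 2.18 CPM (log2 fold change -0.64, SE 0.05, adjusted p = 7.08e-12). Dubr (3.28 ± 0.453 and 2.63 ± 0.290 CPM) and Bvht (1.82 ± 0.0825 and 1.29 ± 0.131 CPM) did not pass, and Platr15, met by DMSO only, was at 1.28 to 1.55 and 0.307 to 0.858 CPM.

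**Figure D3:**
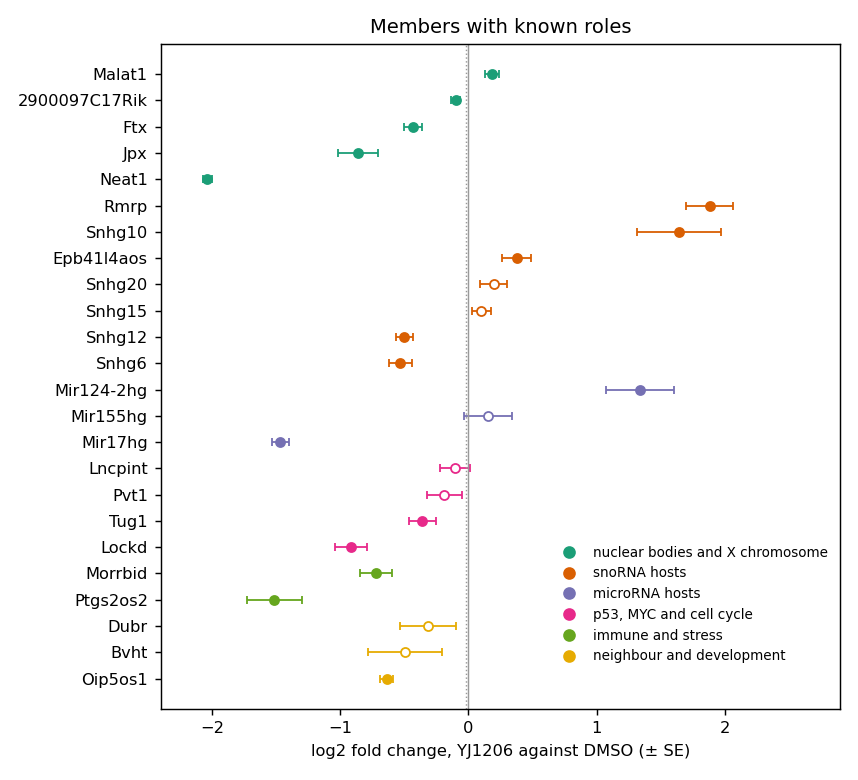
Fitted log2 fold change (YJ1206 against DMSO) with its SE for the members of the role lists that had 10 counts in all 6 libraries; filled points passed an adjusted p of 0.05, open points did not, colours mark the role list, and the dotted line is the median of all genes tested (-0.02). Neat1 (-2.03), Ptgs2os2 (-1.51) and Mir17hg (-1.47) are lowest, and Rmrp (1.88) and Snhg10 (1.64) highest. Rmrp has the colour of the snoRNA host list, although no annotated snoRNA lies within it.

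Ranked by size among called members of at least 1 CPM whose groups did not overlap (125 RNAs), Lncenc1 showed the largest decrease. It is an RNA of embryonic stem cells (chr13:97434970-97497007, plus strand), and was at 27.6, 25.3 and 25.6 CPM in DMSO and at 2.43, 2.41 and 1.77 CPM with YJ1206. It fell 11.9-fold (log2 fold change -3.56, SE 0.13, adjusted p = 1.76e-19). Gm50321 followed with 66.9, 58.3 and 62.4 CPM in DMSO and 8.36, 5.96 and 6.76 CPM with YJ1206 (8.90-fold, log2 fold change -3.15, adjusted p = 1.36e-21). Its sum with the near-identical Gm49083 and Gm8113 was 8.67-fold lower, without the copy Gm47547, which is not in the cell table. Gm30794 (6.47 ± 0.524 to 1.17 ± 0.0965 CPM), Gm5122 (6.16 ± 0.339 to 1.39 ± 0.259 CPM), Gm6093 (17.7 ± 1.40 to 4.10 ± 0.222 CPM) and 2700054A10Rik (17.8 ± 0.391 to 5.07 ± 0.538 CPM) also fell, with log2 fold changes of -2.46, -2.14, -2.11 and -1.81. For 4 of these 6 RNAs, Gm50321 and 2700054A10Rik aside, at least 5 of the 6 values were whole counts, so few of their reads were shared with other transcripts.

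The largest increases were of lower certainty. Gm43972 had 3.89, 2.12 and 4.48 CPM in DMSO and 15.5, 28.3 and 86.9 CPM with YJ1206, with 1 library carrying most of the mean (log2 fold change 3.62, SE 0.41, adjusted p = 6.46e-09; 2.64 without that library). Gm10062 lies antisense to nearly all of it, so their reads could be told apart only by strand, and the strand setting of the count is not given in the sources used here. Gm47662, which lies 1500 bases from the granzyme inhibitor gene Serpinb9, was at 0.666, 0.722 and 1.46 CPM and then 12.4, 9.05 and 13.9 CPM. It rose 12.4-fold (log2 fold change 3.62, SE 0.22, adjusted p = 3.60e-14), and Serpinb9 rose from 27.4 ± 2.13 to 79.8 ± 6.85 CPM (log2 fold change 1.54, adjusted p = 5.04e-18). B230317F23Rik (0.697 ± 0.123 to 3.49 ± 1.16 CPM), Gm12319 (0.646 ± 0.127 to 3.18 ± 0.495 CPM), Gm14951 (0.903 ± 0.0872 to 3.35 ± 0.169 CPM) and Gm43848 (0.799 ± 0.308 to 2.83 ± 0.0753 CPM) rose too, with log2 fold changes of 2.31, 2.28, 1.89 and 1.81.

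A pair of promoters is shown, that of Lncenc1, which fell furthest, and that of Snhg10, which lies 409 bases from the start of Glrx5 on the other strand. Glrx5, an iron-sulfur cluster gene, rose with Snhg10 (54.4 ± 1.52 to 89.1 ± 2.23 CPM, log2 fold change 0.71, adjusted p = 4.44e-14). The sequences are from RefSeq (GRCm38.p6), chr13:97434720-97435019 on the plus strand and chr12:105032230-105032529 on the minus strand, 5′ to 3′, with matches on either strand to a TATA box (TATAAA), an E-box (CACGTG) or a CCAAT box in capitals.
Lncenc1 promoter: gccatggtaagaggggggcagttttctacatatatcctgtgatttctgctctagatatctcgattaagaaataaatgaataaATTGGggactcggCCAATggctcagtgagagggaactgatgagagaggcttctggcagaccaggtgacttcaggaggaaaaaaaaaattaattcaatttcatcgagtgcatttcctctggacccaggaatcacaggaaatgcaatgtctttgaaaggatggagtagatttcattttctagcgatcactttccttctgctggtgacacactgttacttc
Snhg10 promoter: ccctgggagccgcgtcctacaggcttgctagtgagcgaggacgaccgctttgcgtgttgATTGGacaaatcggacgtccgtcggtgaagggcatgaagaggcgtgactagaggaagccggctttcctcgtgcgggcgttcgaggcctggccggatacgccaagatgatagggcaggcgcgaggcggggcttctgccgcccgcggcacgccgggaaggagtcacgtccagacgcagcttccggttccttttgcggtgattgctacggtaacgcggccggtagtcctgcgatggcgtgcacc
Capitals mark 2 matches to CCAAT for Lncenc1 and 1 for Snhg10, and neither window holds the TATA box or the E-box. A RefSeq promoter was matched by symbol for 191 members, of which 118 started within 100 bases of the GENCODE start. CCAAT was in 46.6% of those 118 windows and in 37.4% of all 32851 RefSeq promoter windows of the same length, TATAAA in 12.7% and 13.6%, and CACGTG in 8.47% and 7.15%. Among windows of members called lower, 21 of 45 (46.7%) held CCAAT, and among those called higher 5 of 14 (35.7%). These calls include members that met the rule through 1 group, which set their direction, so the split is a description and tests nothing.

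The members of highest TPM were mostly short RNAs with copies elsewhere. Gm48275, a single exon of 287 bases (chr10:50425044-50425330, minus strand), was at 1236, 1274 and 1268 CPM in DMSO and at 215, 237 and 242 CPM with YJ1206. It fell 5.45-fold (log2 fold change -2.45, SE 0.03, adjusted p = 8.29e-29), and its mean level per length dropped from 25407 to 3682 TPM. Both Gm48275 and Gm42428, identical to it over its whole length, are open along 1 reading frame from end to end (95 of 95 and 100 of 100 codons). By its residues that frame resembled part of the capsid of a murine leukemia virus Gag protein. No repeat annotation was at hand to check this, and the identity was not tested. Gm42428, Gm49980, Gm42031 and Gm46620 were grouped with Gm48275 into 1 family by sequence alignment. The family holds 10 genes, whereas Gm48275 itself aligned over most of its length with 2 others, so its genes are not all shown to be near-identical. The closest copy of Gm49980 was Gm42427, at 94.9% identity. Single values may depend on how reads were divided among similar genes. Only the 5 named with Gm48275 included are in the cell table, so the sum leaves out the rest of the family. The 5 summed to 2163 ± 38.2 CPM in DMSO and 743 ± 10.5 CPM with YJ1206, 2.91-fold lower, with 2120, 2192 and 2178 CPM in one group and 740, 755 and 735 CPM in the other. Each of the 5 fell, with log2 fold changes of -2.45 (Gm48275), -1.31 (Gm49980), -1.25 (Gm42031), -0.53 (Gm42428) and -0.31 (Gm46620).

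The other RNAs of highest TPM changed less. Gm20186 was at 146 ± 7.18 and 129 ± 1.55 CPM (adjusted p = 1.06e-04, log2 fold change -0.19). Of its family of 4 genes, the 3 in the cell table summed to 179 ± 7.68 and 179 ± 3.49 CPM, with overlapping groups. Gm26809, identical in antisense orientation to a whole Gm20186 transcript, is not in that table. Gm29562, one of many copies of a repeated sequence, was at 158 ± 5.25 and 139 ± 2.83 CPM (adjusted p = 6.21e-05, log2 fold change -0.18). Gm47283, which shares sequence with Erdr1, was at 176 ± 2.84 and 173 ± 3.16 CPM and did not pass the test (adjusted p = 0.505). Erdr1 fell from 16.2 ± 0.518 to 9.34 ± 1.02 CPM (log2 fold change -0.79, adjusted p = 9.79e-08), and both summed to 192 ± 3.18 and 182 ± 4.09 CPM. Gm23925, a 132-base gene identical to a stretch of Snhg17, was at 6.35, 4.75 and 4.48 CPM and then 2.43, 1.96 and 1.92 CPM (log2 fold change -1.30, SE 0.21, adjusted p = 3.19e-06). In all, 55 members had another annotated gene aligned over at least 80% of a transcript, and 301 had a count that was not whole in some library, which means that reads were shared with other transcripts.

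By position, 312 members were intergenic, 55 divergent (starting within 1000 bases of a coding gene on the other strand), 53 downstream (within 10000 bases of the end of a coding gene on the same strand), 17 antisense and 2 sense to a coding gene. Downstream members stood lowest. Among those with 10 counts in all 6 libraries, 18 of 25 were lower and 3 higher (median -0.88), against 13 of 35 lower and 6 higher among divergent (median -0.04) and 65 of 149 lower and 25 higher among intergenic members (median -0.19), beside 38.3% lower and 37.8% higher over all genes tested. Their upstream coding neighbours had a median of -0.21 over 23 pairs. Gm49602 lies 369 bases past Sp4, a transcription factor gene, and was at 7.33 ± 0.609 CPM in DMSO and at 2.41 ± 0.245 CPM with YJ1206 (log2 fold change -1.60, adjusted p = 3.04e-09), while Sp4 fell from 30.7 ± 1.70 to 16.0 ± 2.09 CPM (log2 fold change -0.93). Gm42595 lies 896 bases past Ddx51, a ribosome biogenesis helicase gene, and went from 5.50 ± 0.267 to 1.77 ± 0.589 CPM (log2 fold change -1.64, adjusted p = 1.15e-07), while Ddx51 fell from 54.3 ± 1.09 to 30.3 ± 2.36 CPM (log2 fold change -0.84). Neat1 itself counts here, 4224 bases past Frmd8, which fell from 58.4 ± 2.95 to 32.7 ± 1.52 CPM (log2 fold change -0.84).

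Where both a downstream member and its neighbour were called (17 pairs), 11 fell together, 1 rose together, and in 5 the member fell while the neighbour rose, Lockd and Cdkn1b and Oip5os1 and Chp1 among them. Among 14 divergent pairs with both called, 6 fell together, 1 rose together (Snhg10 and Glrx5), and in 7 the RNAs went opposite ways. 4632404H12Rik fell from 15.2 ± 1.26 to 5.28 ± 0.826 CPM (log2 fold change -1.52, adjusted p = 1.25e-11) while Ube2q1, 376 bases away, had a log2 fold change of 0.75. Across pairs, Pearson's r between the log2 fold changes of member and neighbour was 0.49 for downstream (23 pairs), 0.04 for divergent (33 pairs) and 0.09 for intergenic members (91 pairs, with the nearest gene). These r values run over genes of the same 6 libraries, which are not independent replicates. Whether reads that run past the end of a neighbour entered the downstream values was not tested.

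**Figure D4:**
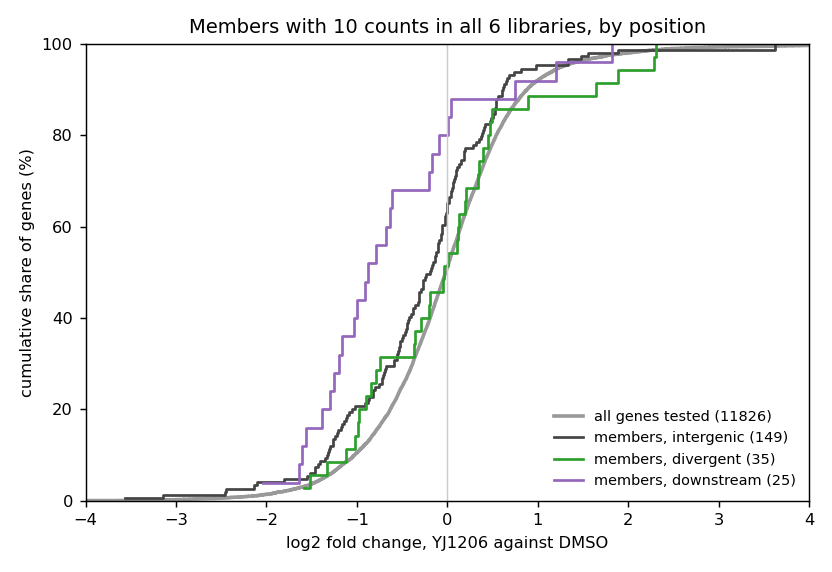
Cumulative share of genes (y axis, %) by fitted log2 fold change, YJ1206 against DMSO (x axis), for all genes tested and for members with 10 counts in all 6 libraries that are intergenic (149), divergent (35) or downstream (25) of a coding gene. The downstream curve lies to the left, with 18 of 25 called lower and a median of -0.88, while the divergent curve crosses that of all genes near 0.

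Dividing a gene's count by its TPM gives the mean effective length of the transcripts that kallisto assigned its reads to, a readout of isoform use in bases. It was calibrated on genes with 1 transcript. The comparison covered 106 members with 2 or more transcripts, matched to GENCODE vM21 by identifier and version. With a change past 1.25-fold and no overlap, 6 of the 106 were longer with YJ1206 and 5 shorter. Snhg15, left out because its version did not match, also passed as shorter (683 to 530 bases on average). Over 9656 genes of 2 or more transcripts, matched without version, 0.684% were longer and 2.71% shorter. Those genes were not matched to the members by count, so the shares are not like for like. Neat1 had effective lengths of 3594, 3580 and 3634 bases in DMSO and 5503, 5269 and 5068 bases with YJ1206. From its 4 annotated transcripts (711, 1030, 3004 and 20771 bases), the longest, which builds paraspeckles, made up 4.74 to 15.9% of Neat1 molecules in DMSO and 13.0 to 25.1% with YJ1206, as bounds over both groups' libraries. In TPM, the longest was at 12.4 to 44.1 in DMSO and 4.87 to 9.59 with YJ1206, and the shorter ones together at 220 to 269 and 26.7 to 32.6, so both were lower with YJ1206.

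Lockd went from 852, 804 and 657 bases to 1335, 1511 and 1753 bases, 1.99-fold longer, while its count fell. Its level per length went from 18.7, 21.1 and 27.2 TPM to 5.94, 4.97 and 3.68 TPM, a larger decrease than on the count scale. Neat1 went from 273 ± 11.3 to 36.9 ± 1.61 TPM in sum. 2700038G22Rik, a host of Snord93, went from 396 to 738 bases on average, from 28.9 ± 0.560 to 13.3 ± 1.43 CPM (log2 fold change -1.12, adjusted p = 2.29e-12) and from 108 to 132 TPM in DMSO down to 21.5 to 29.2 TPM. C030037D09Rik (2.41-fold), A730063M14Rik (2.09-fold) and 2010110K18Rik (1.81-fold) were also longer. Oip5os1 was shorter, with 5192, 4709 and 4842 bases in DMSO and 3646, 3672 and 3835 bases with YJ1206. Its 2 annotated transcripts allow the shares to be solved, and the longer one of 8300 bases made up 58.8, 51.9 and 53.8% of molecules in DMSO and 36.3, 36.8 and 39.0% with YJ1206. The longer transcript was at 12.1 to 13.0 and then 5.77 to 6.27 TPM without overlap, whereas the shorter, at 9.15 to 11.2 and 9.02 to 10.8 TPM, overlapped between groups. Ftx, Snhg20, 4933404O12Rik and 5430416N02Rik were shorter as well, to 0.742, 0.699, 0.771 and 0.493 of their DMSO length.

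**Figure D5:**
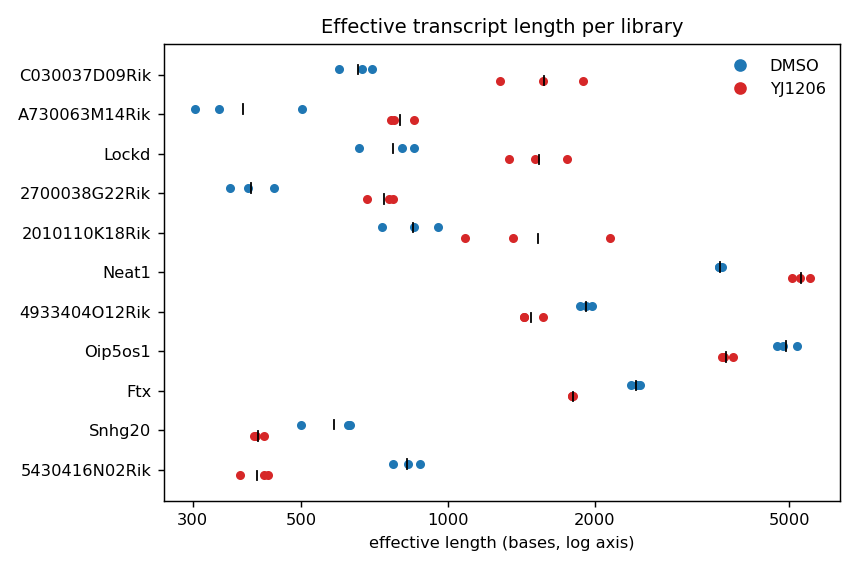
Effective transcript length in bases (x axis, log scale) of the 11 version-matched members that passed 1.25-fold with no overlap between groups. Points are libraries, and vertical ticks are group means. Snhg15, which passed but was not version-matched, is not shown. Lengths of the 6 RNAs from C030037D09Rik to Neat1 lie higher with YJ1206, and those of the 5 from 4933404O12Rik to 5430416N02Rik lie lower.

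The members met by 1 group are given by their most abundant RNAs, as a description. In DMSO only, these were Gm28268, Gm27010, Gm14340, Gm13589 and Gm12295, with means of 3.43 ± 0.559, 3.29 ± 0.692, 3.10 ± 0.247, 3.03 ± 0.801 and 2.81 ± 0.499 CPM. Their means with YJ1206 were 1.19 ± 0.643, 1.03 ± 0.941, 1.21 ± 0.519, 0.617 ± 0.342 and 0.403 ± 0.316 CPM. In YJ1206 only, Gm47438 had 0.307, 0.361 and 0 CPM in DMSO and 6.58, 6.71 and 6.84 CPM with YJ1206, and it starts 303 bases from the ATP synthase gene Atp5b on the other strand. Atp5b rose from 1441 ± 16.9 to 1823 ± 31.5 CPM (log2 fold change 0.34, adjusted p = 3.79e-14). Gm45090 belongs to a large repeated family and was at 0, 4.95 and 0 CPM in DMSO and 6.65, 5.05 and 7.14 CPM with YJ1206, so 1 DMSO library reached the YJ1206 level. Gm45184 (0.443 ± 0.563 and 5.93 ± 2.28 CPM), Gm43660 (0.816 ± 0.352 and 2.65 ± 0.686 CPM) and Gm17746, 32034 bases from Id2 (0.392 ± 0.158 and 1.73 ± 0.407 CPM), were the others.

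Genes that remove nuclear noncoding RNA were called in both directions, as were genes in general. Of 25 nuclear exosome genes and cofactors in the table, 24 were tested, 10 were higher (41.7%) and 12 lower (50%), with a median log2 fold change of -0.14. Over all genes tested these shares were 37.8% and 38.3% with a median of -0.02, and nothing particular to the list is read from its counts. Exosc1 fell from 78.5 ± 1.09 to 50.1 ± 2.96 CPM (log2 fold change -0.65, adjusted p = 2.31e-12), and Exosc8 from 118 ± 3.12 to 79.0 ± 1.56 CPM (log2 fold change -0.58). Also called lower were Exosc2, Exosc3, Exosc5, Exosc7, Exosc9 and the nuclease Dis3 (-0.50). Exosc4 rose (0.29), and Exosc10 was not called. These subunits were not set apart beforehand, and nothing is read from them as a group. The cap-binding genes Ncbp1 (0.57) and Ncbp2 (0.71) and the cofactor C1d (0.96) rose. Of 10 nonsense-mediated decay genes, 5 were higher, Upf1 (0.85) and Smg8 (1.17) among them, and 5 lower, with a median of 0.05, a split near that of all genes tested.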

How the data were processed

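The authors deposited, for cells and for tumors, a table of estimated counts per gene and a table of TPM values, which they scaled within each library for transcript length and to a fixed sum. Per the labels, reads were processed with kallisto on GRCm38 (mm10). Its version and annotation are not given in the sources used here, nor is a strand setting. The labels call the RNA polyadenylated, while the protocol describes ribosomal depletion. Lengths implied by the deposited counts and TPM fitted GENCODE vM21 for 407 to 426 of 460 genes with 1 transcript, depending on the library. The versions of some members, such as Snhg15 and Morrbid, are not in vM21. The authors' annotation was therefore not shown to be vM21. GENCODE vM21 gave coordinates, neighbours and the transcript lengths behind the isoform shares. The tumor table was used only for its gene list.

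Estimated counts were rounded and fitted over all genes of the 6 cell libraries by the quasi-likelihood test of edgeR (version 4.0.16, R version 4.3.3), after filterByExpr and TMM, with p-values adjusted by Benjamini-Hochberg over 11826 genes and a threshold of 0.05. The design had been written for counts, and rounding was the one change made. The fit was also run on simulated counts with a common dispersion and few changed genes. In these data most genes were called, so that run does not test the fit in this setting. The labels do not say whether cultures were independent, so p-values measure the spread between these libraries, and intervals and floors of 3 counts cover counting error only. Alternatives used DESeq2 1.42.0 and limma 3.58.1 (log2(TPM + 1) and log2(TPM + 0.1)). Effective lengths, summed copy families and the rule on a CPM scale were added after seeing the data.

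The members and lists were chosen with earlier results of these data known, so neither the membership nor the split by group is a test. Members are named by rule: those in the role lists, the 8 of highest TPM, the 8 largest called increases and 8 largest decreases among members with 10 counts in all 6 libraries, at least 1 CPM and no overlap, the 5 most abundant met by each group alone, and 2 on each side of the threshold. Hosts of microRNAs outside the role lists and members named with a neighbour, a copy or a length shift were chosen after their values were seen. Some epithelial markers of the chosen list are not reported here.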

Additional observations from a re-analysis of the deposited data

How the results depend on the processing

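Numbering libraries alike did not pair them (correlations of same-numbered deviations from -0.0284 to -0.0184). With the replicate block 229 members were called instead of 237, 49 of them higher and 180 lower. Of all 11826 genes, 8905 were called with the block instead of 8995. The member counts include those that met the rule through 1 group, which set their direction. Counts over all members stayed within 1.5 times under the other fit alternatives, with lincRNAs only, with 20 counts or a mean of 10 required. By contrast, a mean of at least 50 counts left 98 called (24 higher, 74 lower) of 117 tested, beside 8083 of 9887 genes. Requiring 10 counts in all 6 libraries left 133 called (34 higher, 99 lower) of 221. Scaling by total counts moved the median of all genes to -0.20 and that of the 221 RNAs to -0.43, and log2(TPM + 1) moved them to -0.25 and -0.38, so the members lay below all genes by 0.23, 0.23 and 0.13 in the main fit and these 2. With a mean of at least 50 counts, which drops members, their median was -0.47, a difference of -0.46 from that of all genes. The share of higher calls among all called genes was 49.7% by TMM, 36.1% by total counts and 29.2% by TPM. Fitted signs turned for Snhg15 (-0.086), Malat1 (-0.003) and Mir155hg (-0.031) by total counts, for Mir155hg by TPM (-0.149 and -0.173), and for Lncpint without YJ1206 replicate 3 (0.014, range over left-out libraries -0.192 to 0.014). The cause was not tested. The genes of the Gm48275 family in the cell table were, in sum, 3.31-fold lower by total counts and 4.80-fold lower in TPM. At this depth, RNAs under 10 counts could not be compared.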
